A study of Mus musculus with 21 samples.

Results

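Hair shaft keratins are the intermediate filament proteins that fill the cells of the growing hair. The genes of this kind that make up the group described here are Krt31, Krt32, Krt33a, Krt33b, Krt34, Krt35, Krt81, Krt83, Krt85 and Krt86. They were found by the gene name in the arrays' scanner files. The files hold 9 of the 10 names among 27373 gene names, with 10 probes for these 9 genes, since Krt33b has 2. No probe carries the name Krt81.

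A hair filament is built from pairs of a type I and a type II keratin, which are joined by disulphide bonds and embedded in keratin-associated proteins as the cells harden. The shaft grows only during anagen, the growth phase of the hair cycle, from matrix cells in the bulb, so hair keratin RNA is a feature of follicles in that phase. Krt31 to Krt35 are type I keratins in a cluster on chromosome 11, and Krt81 to Krt86 are type II keratins in a cluster on chromosome 15. In human hair, KRT35 and KRT85 appear earliest, in the matrix and cuticle, KRT31, KRT33A, KRT33B, KRT34, KRT81, KRT83 and KRT86 follow in the cortex, and KRT32 belongs to the cuticle.

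The arrays measured 3 tissues, which were skin, liver and epididymal fat, from male mice of the C57Bl6/J background. The mice were 45 weeks old and lacked JNK1, the stress-activated kinase encoded by Mapk8 (JNK1 knock-out, KO), or were wild type (WT). All mice, KO and WT, ate a high-fat diet from week 5 to week 44, and 0.2 ug of total RNA of each sample was labelled with Cy3 and hybridised to a single-colour Agilent array. There were 4 KO and 3 WT skin arrays, 3 KO and 3 WT liver arrays, and 4 KO and 4 WT fat arrays. The labels give neither the deleted part of Mapk8 nor whether each array is a different mouse, so p-values measure the spread between these samples, which may be technical. A level is the log2 of a probe's intensity minus the 75th percentile of its array, so 0 is that percentile. The number of arrays limits the precision of each value.

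The Mapk8 probe averaged -4.76 ± 0.53 in KO skin and -2.91 ± 1.08 in WT skin (SD, n = 4 and 3). It was well above background on 0 of 4 KO and 2 of 3 WT skin arrays, and it was also lower in KO liver and KO fat, at -4.12 and -3.30 against -1.75 and -0.92 in WT. Krt5, the keratin of basal epidermis, lay between 8.97 and 9.37 on the KO skin arrays and between 9.16 and 9.74 on the WT skin arrays. The share of probes well above background was 38.9% to 52.8% on the KO skin arrays and 39.6% to 47.1% on the WT skin arrays. One scanner file did not match its label. That of fat WT 2 gave the 9 hair keratins levels of 4.21 to 9.10, where no other fat array exceeded -2.29, while the authors' deposited value table lists them at 3.30 to 4.32 for fat WT 2 and at 2.68 to 6.41 for the other fat arrays. The levels below leave that scanner file out, so 3 WT fat arrays remain.

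Type I and type II genes lie in tandem. On mouse build mm9 the type I probes run from Krt33a at chr11:99872578-99872637 through Krt33b, Krt34 and Krt31 to Krt32 and to Krt35 at chr11:99953539-99953598, and the type II probes run from Krt83 at chr15:101264040-101264099 through Krt86 to Krt85 at chr15:101346996-101347055. The exon or untranslated region under each probe was not analysed here. The probes named Krt86 and Krt83 are not specific to a gene. The files list accessions of Krt86, Krt81 and Krt83 for both, and the Krt83 probe's own accession is that of Krt87 in RefSeq (GRCm38.p6). Both probes are shown, with the run of 20 bases that they share in capitals, because their values cannot be assigned to a single gene:
Krt83 probe: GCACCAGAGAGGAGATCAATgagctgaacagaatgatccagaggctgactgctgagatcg
Krt86 probe: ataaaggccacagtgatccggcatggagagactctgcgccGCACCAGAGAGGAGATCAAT
The run is the last 20 bases of the Krt86 probe and the first 20 of the Krt83 probe. Every other pair of member probes shared a run of at most 7 bases. Their values are given below under the names in the files, as values that may include RNA of Krt81 and Krt87.

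Promoters of 4 of the 10 genes matched the RefSeq promoter table (GRCm38.p6): Krt31, Krt32, Krt33b and Krt34, all on the minus strand. They are shown because they are neighbours whose RNA was measured by separate probes, among them Krt32, which differed least between KO and WT. The 250 bases before each start site lie at chr11:100050552-100050801 for Krt31, chr11:100088270-100088519 for Krt32, chr11:100029869-100030118 for Krt33b and chr11:100041555-100041804 for Krt34. Capitals mark TATAAA, the core of a TATA box, CTTTGAA, a site of the LEF1 and TCF family that acts in hair matrix cells, and TTTATG, the core letters of sites described for HOXC13 in human hair keratin promoters:
Krt31: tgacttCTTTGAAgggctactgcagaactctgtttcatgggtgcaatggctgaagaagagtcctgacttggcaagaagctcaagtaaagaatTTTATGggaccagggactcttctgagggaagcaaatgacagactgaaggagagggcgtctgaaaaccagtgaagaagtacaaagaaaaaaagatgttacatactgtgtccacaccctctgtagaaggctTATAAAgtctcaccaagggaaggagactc
Krt32: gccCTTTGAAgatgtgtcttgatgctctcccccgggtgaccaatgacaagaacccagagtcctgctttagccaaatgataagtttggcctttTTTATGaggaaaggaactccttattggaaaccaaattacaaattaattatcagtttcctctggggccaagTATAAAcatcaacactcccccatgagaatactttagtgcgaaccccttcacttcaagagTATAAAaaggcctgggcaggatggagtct
Krt33b: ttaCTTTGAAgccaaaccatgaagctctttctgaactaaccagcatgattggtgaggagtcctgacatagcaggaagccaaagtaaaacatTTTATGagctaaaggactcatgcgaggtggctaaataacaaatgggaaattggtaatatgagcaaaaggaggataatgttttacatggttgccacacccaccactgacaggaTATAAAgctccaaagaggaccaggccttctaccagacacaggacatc
Krt34: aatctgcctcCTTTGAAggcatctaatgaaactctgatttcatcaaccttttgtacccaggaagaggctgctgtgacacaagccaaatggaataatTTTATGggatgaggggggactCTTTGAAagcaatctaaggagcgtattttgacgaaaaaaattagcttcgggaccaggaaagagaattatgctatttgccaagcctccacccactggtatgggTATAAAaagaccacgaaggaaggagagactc
Each promoter held every one of these runs on the gene's own strand. CTTTGAA began 244 bases before the start in Krt31, 247 in Krt32, 247 in Krt33b, and 240 and again 133 in Krt34. TTTATG began 158, 158, 159 and 154 bases before the start in Krt31, Krt32, Krt33b and Krt34. TATAAA began 29 bases before the start in Krt31, 88 and 29 in Krt32, 47 in Krt33b and 31 in Krt34. Both strands were searched, and no matches overlapped.

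Among 32851 promoter windows of this length for 27025 gene symbols, TATAAA occurred on either strand in 12.4%, CTTTGAA in 4.5% and TTTATG in 10.8%. On the gene's own strand the shares were 7.59%, 2.38% and 5.24%. Only 8 windows held all of these runs on the gene's own strand, and 4 of the 8 were the hair keratins above. The runs were chosen after these promoters were read, and the 4 genes are tandem copies that share descent, so the counts describe the sequences and are not sites shown to be bound. Krt32 held the same runs at nearly the same places as its neighbours.

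The question put to the skin arrays was whether the loss of JNK1 in mice on a high-fat diet went with a different level of these genes. Hair shaft keratin levels were higher in KO skin than in WT skin for 9 of 9 measured genes. The differences (KO minus WT, log2) ran from 1.14 for Krt32 to 4.55 for the Krt83 probe, with a median of 4.11, or 17.3-fold, against a median of -0.10 over the 13501 genes tested. Every KO array lay above every WT array for 9 of 9 genes, as it did for 3.35% of all genes tested. No member passed an adjusted p of 0.05 in limma, where 2 of 13501 genes (0.0148%) did, both of them lower in KO. The unadjusted p was below 0.05 for 9 of 9 members, and 2.85% of all genes tested were higher at that level.

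Krt35 had levels of 7.73, 6.03, 7.25 and 5.15 in KO skin, against 1.99, 3.94 and 2.60 in WT skin. The groups did not overlap, with the lowest KO array above the highest WT array. Krt35 averaged 6.54 ± 1.17 in KO skin and 2.84 ± 1.0 in WT skin (SD, n = 4 and 3), a difference of 3.70 ± 0.671 (SE) with an adjusted p of 0.145 in limma. Krt85, the type II keratin that pairs with Krt35, had levels of 6.25, 4.80, 5.95 and 3.67 in KO skin, against 0.50, 2.27 and 0.39 in WT skin. It averaged 5.17 ± 1.18 in KO skin and 1.06 ± 1.05 in WT skin (SD, n = 4 and 3), a difference of 4.11 ± 0.684 (SE) and 17.3-fold, with an adjusted p of 0.144. For both genes KO 1 was the highest array, and KO 4 the lowest of the KO arrays.

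In the type I cortex keratins KO 4 was again the lowest KO array and WT 2 the highest WT array. Krt31 had levels of 6.11, 4.44, 5.86 and 3.59 in KO skin, against 0.49, 2.16 and 0.18 in WT skin, a difference of 4.06 ± 0.694 (SE). Krt33a had levels of 8.22, 6.29, 8.08 and 5.74 in KO skin, against 1.96, 4.52 and 2.46 in WT skin, a difference of 4.10 ± 0.781. WT 2 stood above the other WT arrays in both genes, and still below KO 4. Krt33b, by the probe with the higher signal, had levels of 7.78, 6.05, 7.52 and 5.39 in KO skin, against 1.79, 3.93 and 1.93 in WT skin. Its difference was 4.13 ± 0.708 by this probe and 4.38 by the other, so its probes gave a similar size. Krt34 had levels of 7.68, 6.20, 7.85 and 5.35 in KO skin, against 0.95, 4.08 and 1.78 in WT skin, a difference of 4.51 ± 0.832 and 22.7-fold. The adjusted p in limma was 0.144 for Krt31 and Krt33b and 0.145 for Krt33a and Krt34.

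The type II cortex probes gave similar values. The Krt83 probe had levels of 7.12, 5.73, 7.13 and 4.71 in KO skin, against 0.26, 3.41 and 1.21 in WT skin, a difference of 4.55 ± 0.821 (SE) and 23.4-fold. The Krt86 probe had levels of 7.23, 5.76, 7.09 and 4.73 in KO skin, against 1.06, 3.50 and 1.27 in WT skin, a difference of 4.26 ± 0.757 and 19.2-fold. On the KO arrays the values of the probes sharing the printed run differed by little, and both had an adjusted p of 0.145.

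The cuticle keratin Krt32 had the smallest difference. Its levels were 3.95, 2.97, 3.71 and 2.33 in KO skin, against 1.82, 2.27 and 2.19 in WT skin, and the lowest KO array was only 0.06 above the highest WT array. It averaged 3.24 ± 0.73 in KO skin and 2.10 ± 0.24 in WT skin (SD, n = 4 and 3), a difference of 1.14 ± 0.384 (SE) and 2.21-fold, with an adjusted p of 0.555. In the other 8 genes the gap from the lowest KO to the highest WT array reached up to 1.46. The difference exceeded 3 for those 8 genes, as it did for 0.793% of all genes tested. Whether Krt32 differs from the rest beyond error was not tested.

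**Figure D1:**
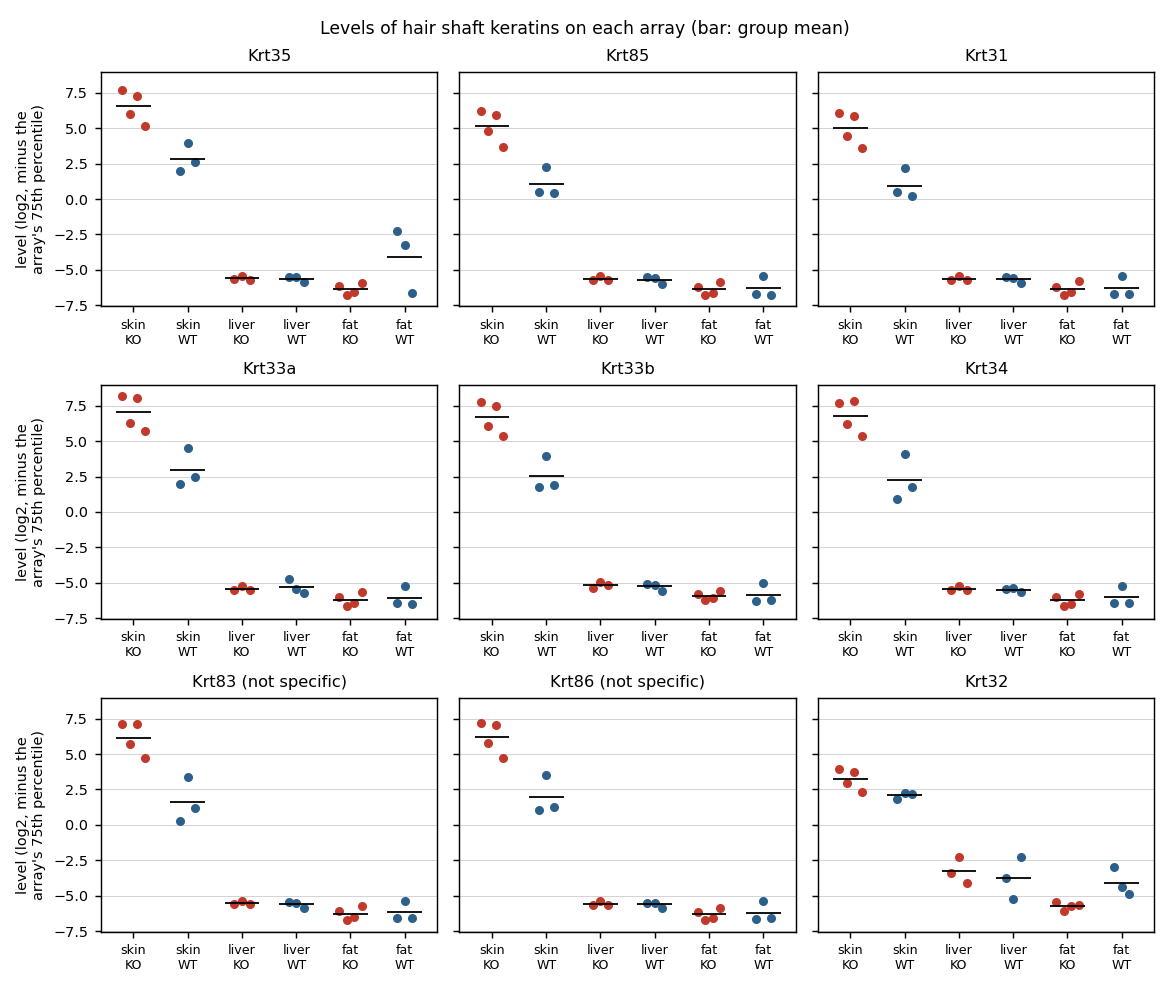
Level of each hair shaft keratin (log2 intensity minus the array's 75th percentile, 1 panel per gene) on each array, KO in red and WT in blue, with bars at the group means. The title note "not specific" marks the probes that match several type II genes. KO skin lies above WT skin in every panel, with the smallest step in Krt32, and liver and fat lie at the bottom.

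The arrays of a group differed from each other by more than the distance from the lowest KO to the highest WT array. For every gene but Krt32 they differed by less than the difference between the group means. Averaged over the 9 genes, the level was 6.90, 5.36, 6.72 and 4.52 in KO skin, against 1.20, 3.34 and 1.56 in WT skin. KO 1 was the highest array for 7 of 9 genes and KO 3 for 2, KO 4 was the lowest KO array for 9 of 9, and WT 2 was the highest WT array for 9 of 9. The range over the KO arrays was 1.61 to 2.58 for a gene, and over the WT arrays 0.45 to 3.15. The spread within a group was thus shared by the genes, and no spot was flagged as saturated, or held a saturated pixel, on the skin arrays.

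The call depended on which arrays entered the fit. Without WT 2 limma called 7 of 9 members, among 43 genes called in all, 41 of them higher in KO. The called members had adjusted p from 0.0412 to 0.0499, and Krt35 and Krt32 were not called (0.0635 and 0.437). In one fit of all 6 groups it called 8 of 9, not Krt32 (adjusted p = 0.32), among 130 genes called in all, 114 of them higher. That fit shares the error with liver and fat arrays, on which most of these probes lay near background. For Krt31 the SD was 0.15 in KO liver, against 1.2 in KO skin. For Krt35 it was 2.29 in WT fat, against 1.17 in KO skin, and for Krt32 1.48 in WT liver, against 0.24 in WT skin. The part of this shared error in the calls was not tested. No slide held arrays of both skin groups, so a value within a slide could not be had. With the slide as a fixed block in the fit of all 6 groups, limma called 0 of 9 members. Their median was 3.98 there, and their adjusted p ran from 0.0913 for Krt33b to 0.245 for Krt32.

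**Figure D2:**
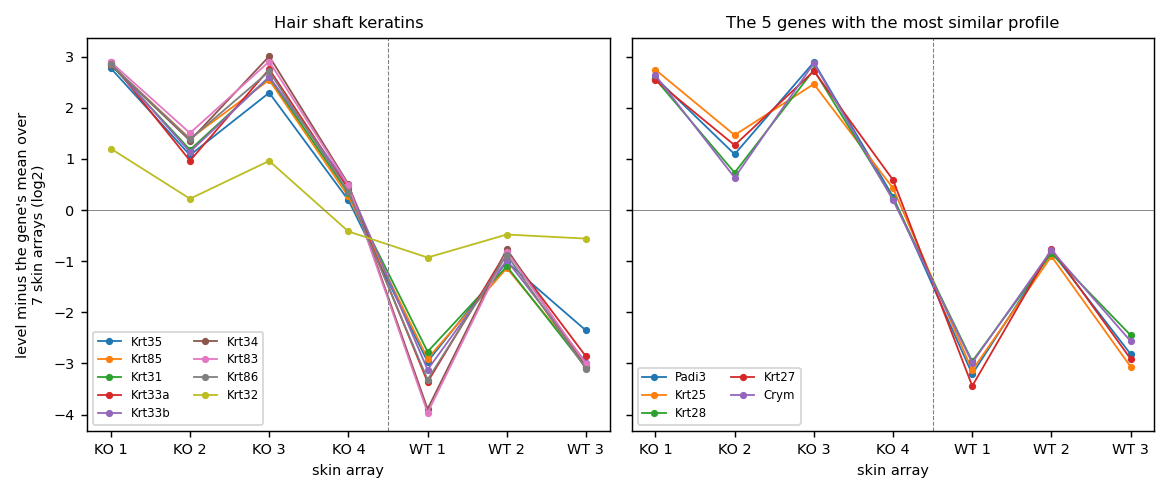
Level of each gene minus its mean over the 7 skin arrays (log2), for the 9 hair shaft keratins at left and for the 5 genes with the most similar profile at right. KO 1 and KO 3 are the high arrays and WT 2 is the highest WT array in both panels, and the Krt32 line is the flattest.

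The genes whose profile over the 7 skin arrays was most like the members' mean profile were Padi3, Krt25, Krt28, Krt27 and Crym. Likeness was the root mean square distance between profiles centred on their own mean, on the log2 scale. It was 0.184 for Padi3, a peptidylarginine deiminase of the follicle, and 0.207, 0.208 and 0.246 for Krt25, Krt28 and Krt27, keratins of the inner root sheath that moulds the shaft. Crym, a thyroid hormone-binding protein, lay at 0.249. The median over the 13498 genes compared was 2.21, and the members themselves lay between 0.164 for Krt35 and 1.46 for Krt32. Since KO and WT levels both enter this distance, it describes the same arrays as the KO comparison. Padi3 had levels of 5.62, 4.12, 5.92 and 3.29 in KO skin, against -0.18, 2.22 and 0.21 in WT skin.

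Other hair keratins were dimmer and also higher in KO skin, 3 of 3 of those measured, with none called. Krt84, known from the tongue as well as the hair, averaged 1.29 ± 1.13 in KO skin and -2.14 ± 0.46 in WT skin (SD, n = 4 and 3), a difference of 3.43 ± 0.567 (SE). Krt36 averaged 0.08 ± 0.89 in KO skin and -2.65 ± 0.78 in WT skin, a difference of 2.74 ± 0.526. It was well above background on 4 KO and 1 of 3 WT skin arrays, so this size is set partly against background. Krt82, a cuticle keratin, was not well above background on any WT skin array, against 4 of 4 KO arrays. It passed the filter on dim probes through its KO signal alone, so its place among the genes measured is no separate support. The difference between its signals had an adjusted p of 0.145 in limma. Krt82 was at least 10.1-fold higher in KO skin, a bound that was not tested. That bound sets the KO mean against the lowest signal well above background on each WT array, or against the probe's own level where that was higher. For Krt82 it was higher on WT 2, at -2.86 against -3.82. Every KO array lay above every WT array for each of these genes, as for 3.35% of all genes tested.

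The other keratins of both clusters were compared in the same fit. Of the 44 keratin names on the array 38 were tested in skin, 29 of them not members. Among those 29, 21 were higher and 8 lower in KO skin, with a median of 0.49. The KO arrays lay above all WT arrays for 11 of the 29, and for 3.35% of all genes tested. Before the type I members the nearest keratin tested was Krt23, with its probe at chr11:99339393-99339452, and the Krt33a probe begins at 99872578. Other genes between them were not examined by position. Krt23 differed by -0.23 ± 0.251 (SE) and, past Krt36 and Krt13 on the other side, Krt15 by -0.47 ± 0.362. Beside the type II members, Krt7 differed by 0.02 ± 0.269 and Krt80 by -0.13 ± 0.273. On the other side, next to Krt85, the hair keratin Krt84 differed by 3.43 ± 0.567. Krt82, above background on 0 of 3 WT skin arrays, was at least 10.1-fold higher by the bound above. Its adjusted p in limma, for the difference between the signals and not the bound, was 0.145. Next to Krt35 the keratin Krt36 differed by 2.74 ± 0.526. The basal epidermal pair Krt5 and Krt14 differed by -0.19 ± 0.214 and 0.20 ± 0.472. A difference above 3 was seen in 9 of the 29, and in 0.793% of all genes tested. Among the 9 were the inner root sheath keratins Krt25, Krt26, Krt27, Krt28 and Krt71. None of the 38 was called, and whether the clusters differ from their neighbours was not tested.

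**Figure D3:**
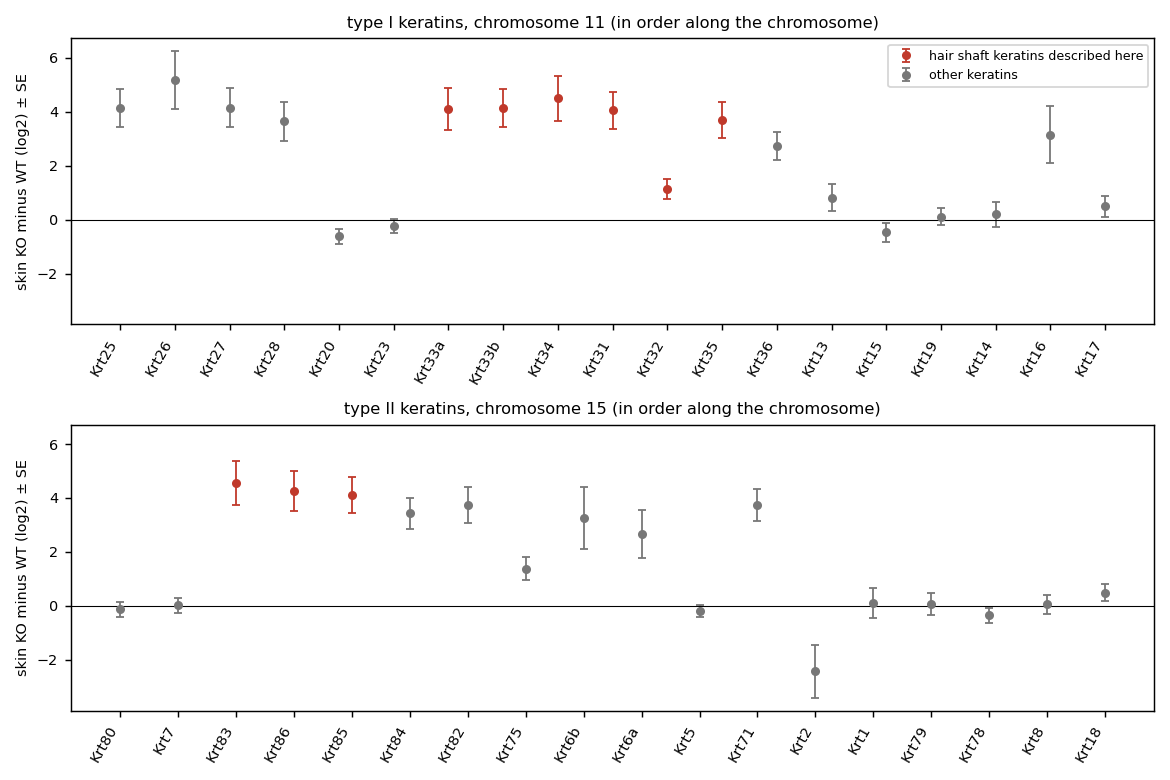
Difference between KO and WT skin (log2, with its SE) for the keratins tested, in their order along chromosome 11 above and chromosome 15 below, with hair shaft keratins in red. Points are evenly spaced and do not show distance. Krt10, which the files do not place, is left out. The red points stand at 3.70 to 4.55 except Krt32 at 1.14, while Krt23 and Krt7 on one side lie near 0. On the other side Krt36 stands at 2.74, Krt84 at 3.43 and Krt82, with WT skin at background, at 3.74.

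RNAs of proteins that surround and cross-link the shaft keratins were mostly at higher levels in KO skin, without a call. Of the keratin-associated proteins, the sulphur- or glycine-rich matrix of the shaft, 39 of 39 tested were higher in KO skin (of 43 on the array). Their median difference was 4.67. All KO arrays lay above all WT arrays for 38 of 39, and for 3.35% of all genes tested. Krtap5-3 was well above background on 4 KO and 0 WT skin arrays, and Krtap6-2 and Krtap24-1 on 4 KO and 1 WT array each. Krtap5-3 passed the filter on dim probes through its KO signal alone, so its place in these counts is no separate support. Differences from WT signals at background, and a median that includes them, are not exact sizes. The smallest unadjusted p was that of Krtap21-1, at 5.48 ± 1.09 in KO skin and -0.01 ± 1.71 in WT skin (SD, n = 4 and 3), a difference of 5.49 ± 0.823 (SE) with an adjusted p of 0.144. Of the adhesion and cross-linking genes 8 of 9 tested were higher, with a median of 2.07, and Tgm5, a transglutaminase, was at -0.15. S100a3, a calcium-binding protein of the cuticle, differed by 3.70 ± 0.707 and Vsig8 by 4.08 ± 0.793. Padi1, a further deiminase, differed by 2.76 ± 0.608. Neither list had a gene called.

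Of the transcription factors of the hair shaft 8 of 10 tested were higher, with a median of 0.66, and none was called. Lef1 averaged -0.64 ± 1.13 in KO skin and -3.21 ± 0.88 in WT skin (SD, n = 4 and 3). It was well above background on 4 KO and 1 of 3 WT skin arrays. Its difference was 2.57 ± 0.632 (SE), with an adjusted p of 0.322 in limma. Binding of its family to the CTTTGAA runs printed above was not tested. Msx2, a homeobox factor of the matrix, averaged 1.29 ± 1.0 in KO skin and -0.76 ± 0.13 in WT skin, a difference of 2.05 ± 0.487 with an adjusted p of 0.286. Vdr, the vitamin D receptor, differed by 0.82 ± 0.309 and Runx1 by 0.58 ± 0.273. Hoxc13 was well above background on 1 of 4 KO and 0 of 3 WT skin arrays and was not tested.

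Marker lists of other parts of the skin and follicle differed by other amounts. Inner root sheath and companion layer genes were higher for 7 of 7 tested (of 8 on the array), with a median of 3.96. Their list means were 4.99 to 7.06 on KO arrays and 1.52 to 3.85 on WT arrays. Pigment genes of melanocytes were higher for 5 of 5 tested (of 8 on the array), with a median of 2.49. Tyr, Mc1r and Oca2 were too dim to be tested, and Slc45a2 was above background on 3 KO and 0 WT skin arrays. List means of the tested genes were -0.16 to 2.57 on KO arrays and -1.43 to -0.96 on WT arrays. Pmel, a structural protein of the pigment granule, differed by 3.02 ± 0.639 (SE). Proliferation genes were higher for 9 of 10, with a median of 0.48 and list means of -0.56 to 1.34 on KO arrays and -0.51 to -0.03 on WT arrays. Outer root sheath and bulge genes were higher for 4 of 8, with a median of -0.02, and interfollicular epidermis genes for 6 of 10, with a median of 0.07. None of these genes was called.

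The lists of skeletal muscle, adipocyte and endothelial genes had medians below 0. Skeletal muscle genes were lower for 10 of 10, with a median of -0.66 and list means of 6.54 to 8.08 on KO arrays and 8.12 to 8.27 on WT arrays. Adipocyte genes were lower for 7 of 9, with a median of -0.67 and list means of 3.91 to 4.93 on KO arrays and 4.93 to 5.16 on WT arrays. Endothelial genes were lower for 7 of 8, with a median of -0.52 and list means of 0.22 to 1.07 on KO arrays and 1.0 to 1.27 on WT arrays. Sebaceous gland genes were lower for 5 of 6 and dermal fibroblast genes for 5 of 8, with medians of -0.24 and -0.17. Macrophage genes were higher for 2 of 5 and hepatocyte genes for 5 of 6, and no gene of an epididymis and testis list passed the filter. None of these genes was called, and KO 1, the highest array for most hair keratins, had the lowest muscle and adipocyte means. The part of the tissue makeup in the hair keratin difference was not tested. In bulk skin, fewer cells of a type and less RNA per cell cannot be told apart.

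**Figure D4:**
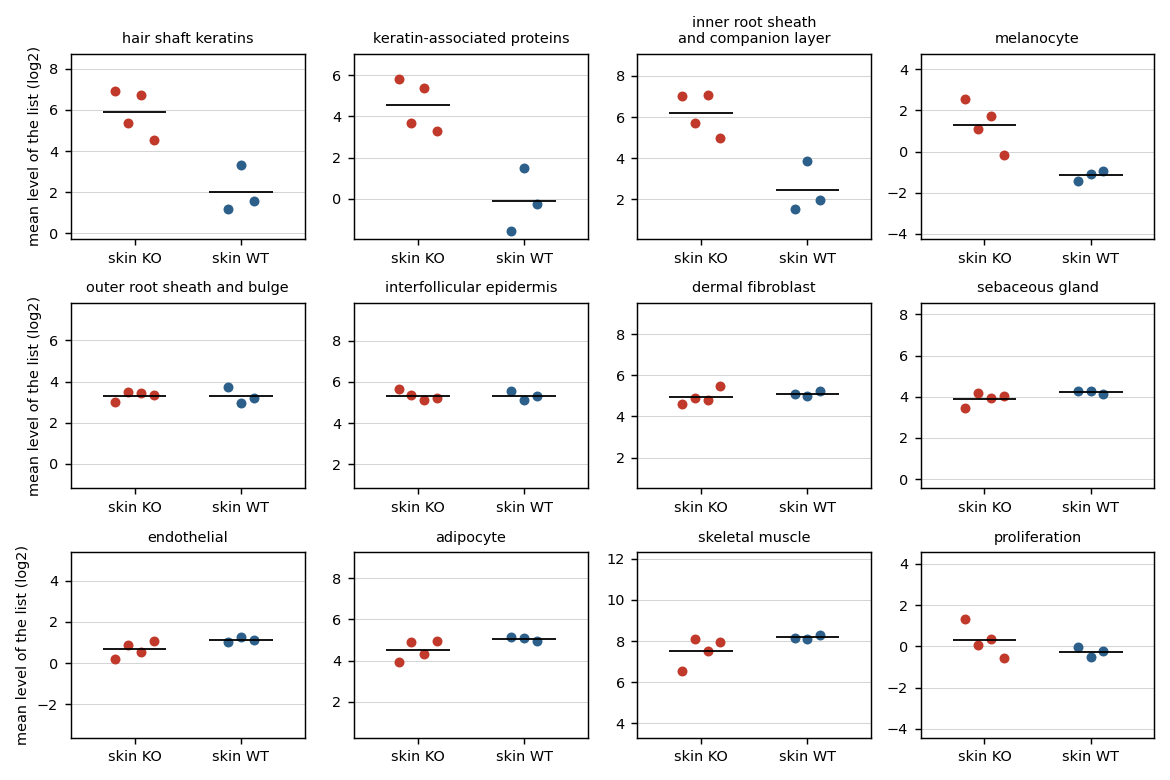
Mean level (log2) of the tested genes of each list on each skin array, KO left in red and WT right in blue, with bars at the group means; every panel spans the same number of log2 units around its own mean. The hair shaft, keratin-associated, inner root sheath and melanocyte panels separate KO from WT, and outer root sheath and epidermis overlap. Muscle, adipocyte and endothelial means are lower on most KO arrays.

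Liver and fat served as background for these genes. Over the 9 genes and 13 liver and fat arrays, 4 of 117 values were well above background. Levels lay between -5.99 and -2.24 in liver and between -6.80 and -2.29 in fat. The 4 values were Krt32 on liver KO 2 (-2.24), liver WT 3 (-2.28) and fat WT 1 (-2.98), and Krt35 on fat WT 1 (-2.29). Liver KO 2 and liver WT 3 also had the highest liver levels of Lor, the cornified envelope protein loricrin, at 5.34 and 4.79, and of Krt5, at 1.37 and 0.98. Fat WT 1 had the highest fat level of Krt5, at -0.62. The markers did not all move with these values, since Krt10, a keratin of upper epidermis, was lowest in liver on liver WT 3 (0.09), and fat WT 1 was exceeded by fat KO 1 in Lor (-3.48 against -3.64) and by fat KO 4 in Krt10 (0 against -0.30). The part of epidermal RNA in these 4 values was not tested. No member passed the filter on dim probes for a KO test within liver or within fat, so none was tested there. In those tests limma called 3 of 13312 genes in liver (0.0225%) and 2 of 15255 in fat (0.0131%).

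In WT skin, too, the hair keratins stood above the other tissues. All 9 members passed the filter on dim probes through their skin signal, so a difference from tissues at background is a description of where these genes are measured. Bounds were set against the lowest signal well above background, and were not tested. The 8 members that were above background on no WT liver array were at least 45.9-fold (Krt31) to 189-fold (Krt33a) higher in WT skin than in WT liver. For the difference between the signals, not the bound, the adjusted p in limma was 2.7e-08 for Krt31 and 6.74e-09 for Krt33a. Krt32 was above background on 1 of 3 WT liver arrays and has no such bound. The 7 members above background on no WT fat array were at least 60.3-fold (Krt31) to 248-fold (Krt33a) higher in WT skin than in WT fat. The adjusted p in limma for the difference between the signals was 2.68e-08 for Krt31 and 7.44e-09 for Krt33a. Krt32 and Krt35 were above background on 1 of 3 WT fat arrays. Of all genes tested, 29.7% were called higher in WT skin than in WT liver, and 26.6% than in WT fat.

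A joint fit also subtracted the KO minus WT difference in liver, or in fat, from that in skin. For the members it is not a comparison of KO effects between tissues, because the subtracted terms are mostly differences between signals at background. It also shares its error with the liver and fat arrays. On these Krt31 varied little in liver, but Krt35 had an SD of 2.29 in WT fat and Krt32 an SD of 1.48 in WT liver. The contrast with liver had a median of 4.03 over the members, against -0.09 over all 14830 genes tested. Krt31 at 4.02 ± 0.798 (SE), Krt33b at 4.03 ± 0.798 and Krt85 at 4.03 ± 0.789 each had an adjusted p of 0.0498 in limma, where 0.196% of all genes were called higher. In skin alone their adjusted p was 0.144. Krt32 was at 0.62 ± 0.871 (adjusted p = 0.829). The contrast with fat had a median of 4.22, against -0.14 over all 16097 genes tested, and 0.398% of all genes were called higher. The other 8 members ran there from 4.13 ± 0.772 for Krt31 to 6.01 ± 1.10 for Krt35, with adjusted p from 0.023 to 0.0413, and Krt32 was at 2.78 ± 0.843 (adjusted p = 0.221).

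The size for Krt35 includes fat WT 1 at -2.29 and fat WT 3 at -3.25, against -6.77 to -5.94 in KO fat. The calls against liver ended when any of 11 of the 13 arrays was left out, and became 7 of 9 without skin KO 4 or without skin WT 2. Against fat, no member was called without skin KO 1, skin KO 3, fat KO 1, fat KO 3, skin WT 1, skin WT 3 or fat WT 3. Without fat KO 2 there were 2 called and without fat WT 1 there were 5. With the slide as a fixed block no member was called in either contrast, at medians of 4.03 and 4.22.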

How the data were processed

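Skin, liver and epididymal fat of KO and WT mice were measured on 21 arrays of 60-base probes. Per the file headers, the scanner files give the intensity of each spot after background subtraction by Agilent's Feature Extraction 10.7.3.1, not scaled between arrays. The authors' deposited value table is on the log2 scale. Limma is named in the submitters' processing notes, and how its columns were normalized is not given in the sources used here. Its column medians lay between 5.76 and 6.00, and its centring is unknown. With it the members' median for skin KO minus WT was 4.06, where the scanner values gave 4.11. For WT skin minus WT liver it gave 5.50, where the scanner values gave 7.56. The deposited table served as an alternative, and for fat WT 2 in place of the scanner file. That file correlated with its own column at r = 0.779 over probes (at least 0.972 for the other 20 arrays).

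In R 4.3.3, log2 of the processed intensity minus each array's 75th percentile was taken, and the brightest probe of a gene name was used. Genes were tested where 3 or more arrays of the tissue or tissues compared were well above background, with limma 3.58.1 (two-sided, Benjamini-Hochberg over all genes tested, threshold 0.05). KO and WT were compared within a tissue. Contrasts between tissues came from one fit of the arrays of all tissues, 20 in all. The members, gene lists and tests were chosen with earlier results of these data known. The genes named were all members, the 5 with the most similar skin profile, and, of each list, those with the smallest p. Neighbouring keratins named beside the members and the bounds below background were additions to that rule. The fits were tested on simulated data. Replicate numbers did not pair arrays. Alternatives were background correction, normalization, the deposited table, filters, probe choice, blocks and leaving out each array.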

Additional observations from a re-analysis of the deposited data

Results flagged for a closer look

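The joint fit gave a difference past its threshold in limma between the skin contrast of KO and WT and that in liver for Krt31 (4.02), Krt33b (4.03) and Krt85 (4.03 on the log2 scale). Against fat it did so for Krt31 (4.13), Krt33a (4.21), Krt33b (4.22), Krt34 (4.71), Krt35 (6.01), the Krt83 probe (4.62), Krt85 (4.16) and the Krt86 probe (4.36). Apart from Krt35 on fat WT 1, these probes were not well above background on the liver and fat arrays used, so a KO effect in those tissues was not measured and these values do not compare one. The skin arrays alone gave no call for any of them.

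The scanner file of fat WT 2, which no fit above used, held signal for every measured hair keratin. Its levels were 7.01 for Krt31, 4.21 for Krt32, 9.10 for Krt33a, 8.88 for Krt33b, 8.74 for Krt34, 8.39 for Krt35, 7.67 for the Krt83 probe, 6.40 for Krt85 and 7.80 for the Krt86 probe. All 9 were well above background there, and the highest level on any other fat array was -2.29, for Krt35. On the KO skin arrays Krt33a reached 8.22 and Krt85 reached 6.25, so the file lies above the highest skin array for both genes. The authors' deposited column for fat WT 2 lists Krt33a at 4.0 and Krt85 at 3.68, within the range of the other fat columns. Which sample the file holds was not tested.

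None of 17 genes checked, which were the members, 3 further hair keratins and the 5 with a similar profile, had a skin KO array far from the others by Dixon's criterion.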

How the results depend on the processing

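Of the counts of called genes in skin, 2 in all and 0 of the members, the first became 0 with quantile normalization, without a filter on dim probes and without the dimmest array of each skin group, 1 with the deposited table or with the slide as a random block, and 130 in one fit of all 6 groups, where 8 members were called. The slide as a fixed block in that fit turned those 130 genes and 8 members into 0 and 0. Leaving out arrays in turn gave 0 to 43 genes and 0 to 7 members. The median of the members stayed between 3.46 and 4.56 in the other settings and between 3.75 and 4.82 with an array left out. In liver, 3 calls became 11 with normexp, 5 with the deposited table and 1 without a filter, and 0 to 28 with an array left out. In fat, 2 calls became 1 with the deposited table, 4 without a filter and 0 with the scanner file of fat WT 2, and 1 to 14 with an array left out. For skin minus liver, 30 calls and 3 members became 5 and 0 with normexp, 64 and 7 with quantile normalization, 62 and 7 with the deposited table, 3 and 0 without a filter, and 4 and 0 with the slide as a fixed block. The slide as a random block left 0 members, and leaving out arrays gave 0 to 100 genes and 0 to 7 members. Krt32 lay between -0.12, without liver WT 3, and 1.37. For skin minus fat, 68 calls and 8 members became 104 genes with the deposited table, 43 without a filter, and 0 genes and 0 members with the slide as a fixed block, and 0 to 149 genes and 0 to 8 members with an array left out. With normexp 65 genes were higher and 37 lower in that contrast, where 64 and 4 were. The median of WT skin minus WT liver, 7.56, became 3.84 with normexp and 5.50 with the deposited table, and that of WT skin minus WT fat, 7.81, became 4.77 with normexp. WT skin minus WT fat gave 14883 calls without a filter, where 9253 were made, and with normexp 5080 genes were higher and 3911 lower, where 4276 and 4977 were. The cause was not tested for any of these shifts.

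Replicate numbers did not pair arrays (correlations of same-numbered KO and WT arrays of -0.07, -0.11 and -0.04 in skin). As a replicate block they left 0 calls in skin, liver and fat, 2 genes and 0 members for skin minus liver, and a median of 4.56 in skin. The slide as a random block could not be fitted in liver, and the scan time was 1 for each slide, so it was not run apart from the slide. With 3 or 4 arrays a group, the spread shared by the members on KO 4 and WT 2 limits the skin comparison, and liver and fat signals at background limit the others.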

Other observations

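Krt16, Krt6a and Krt6b, keratins of stressed or thickened epidermis chosen after their values were seen, were also higher in KO skin without being called. Krt16 averaged 6.23 in KO skin and 3.08 in WT skin, a difference of 3.15 ± 1.05 (SE) with an adjusted p of 0.555 in limma. Krt6b averaged 4.53 in KO skin and 1.26 in WT skin, a difference of 3.27 ± 1.15, and Krt6a averaged 5.10 in KO skin and 2.44 in WT skin, a difference of 2.66 ± 0.888. KO and WT arrays did not overlap for Krt6a and Krt6b and overlapped for Krt16. Krt17, of the outer root sheath and bulge list, differed by only 0.50 ± 0.382, with overlapping arrays. Krt2, a keratin of upper epidermis, averaged -1.37 in KO skin and 1.06 in WT skin, a difference of -2.43 ± 0.97 with an adjusted p of 0.555.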
